A study of Mus musculus with 11 samples.

Results

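The 10 genes described here encode chains of cytokine receptors on T cells. They are the shared gamma chain Il2rg, the chain Il2rb that the receptors for IL-2 and IL-15 have in common, the private chains Il2ra, Il15ra, Il7r, Il4ra and Il21r, the IL-6 receptor pair Il6ra and Il6st, and the IL-12 receptor chain Il12rb2. They were taken by symbol, with no threshold on a measured value, out of 55414 genes in the deposited table. All 10 were found, and all 10 were among the 22238 genes that passed the filter on low counts.

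RNA was measured in OT-I CD8+ T cells, which come from mice with a transgenic T cell receptor for a peptide of ovalbumin, so that nearly every T cell sees the same antigen. All groups share this genotype. The 4 naive libraries are from cells kept for 12 h with no treatment, the 4 stimulated libraries from cells given the solvent DMSO and the peptide N4, and the 3 Torin libraries from cells given Torin, an inhibitor of the kinase mTOR, and N4. Libraries carry numbers from 1 to 4, and the Torin libraries are numbers 1, 3 and 4. No library had Torin without peptide, and the age and sex of the mice, the dose of Torin and the pooling of animals are not given in the labels used here. The labels do not say that libraries of one group came from separate mice or cultures, and the p-values below therefore reflect the spread among these libraries alone, which may be technical. Library totals ran from 241865667 to 405884097 estimated counts.

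Receptors of the gamma-chain family join partner chains with Il2rg, which is shared by the receptors for IL-2, IL-4, IL-7, IL-9, IL-15 and IL-21. A chain is called private here where, within this family, it serves the receptor for a single cytokine. Il2rg binds the kinase JAK3 and the partner chain binds JAK1, and both kinases then act on STAT transcription factors, chiefly STAT5 for IL-2, IL-7 and IL-15. Il2ra alone does not signal but raises the affinity of the Il2rb and Il2rg pair for IL-2, and Il15ra can present IL-15 to the same pair on a neighbouring cell. Il6st, also called gp130, is the signalling chain for IL-6 and its relatives, while Il12rb2 pairs with Il12rb1. Naive CD8+ T cells are known to depend on IL-7 for survival, and activated cells on IL-2 for expansion.

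The promoters of 3 receptor genes that rose with peptide and of the gene that fell most are shown because these genes define the change described below. The sequences are the 150 bases just before the start of RefSeq's transcript, taken from RefSeq on GRCm38.p6 and written 5′ to 3′ on the gene's strand, while the count tables were made on mm39. Capitals mark a match to any of 5 motifs. Il2ra lies at chr2:11642642-11642791 on the plus strand, Il15ra (the first of its starts) at chr2:11705143-11705292 on the plus strand, Il12rb2 at chr6:67376189-67376338 on the minus strand and Il7r at chr15:9529877-9530026 on the minus strand.
Il2ra: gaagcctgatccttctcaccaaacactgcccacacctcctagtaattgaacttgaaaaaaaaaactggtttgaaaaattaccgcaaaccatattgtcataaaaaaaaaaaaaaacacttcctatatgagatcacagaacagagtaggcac
Il15ra: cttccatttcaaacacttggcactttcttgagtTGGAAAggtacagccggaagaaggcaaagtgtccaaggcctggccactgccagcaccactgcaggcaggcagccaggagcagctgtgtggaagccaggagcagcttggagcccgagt
Il12rb2: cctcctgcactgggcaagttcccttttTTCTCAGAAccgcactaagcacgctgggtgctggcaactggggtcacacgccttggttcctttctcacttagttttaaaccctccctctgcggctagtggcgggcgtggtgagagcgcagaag
Il7r: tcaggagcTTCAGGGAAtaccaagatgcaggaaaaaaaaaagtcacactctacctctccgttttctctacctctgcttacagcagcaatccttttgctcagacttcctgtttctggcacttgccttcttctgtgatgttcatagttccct

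The RefSeq table held 10 promoter windows for 9 of the 10 genes, and Il2rb had none. The 250 bases before each start were searched on both strands for the STAT motif TTCNNNGAA, the AP-1 motif TGANTCA, the FOXO motif GTAAACA, the NFAT core TGGAAA and the NF-kappaB consensus. The STAT letters stood in 2 of the 10 windows, 123 bases before the start of Il12rb2 and 142 bases before that of Il7r, against 7.02% of all 32851 windows. The NFAT core stood in 2 windows, Il15ra at 117 bases and Il2rg at 23 bases, against 18.6% of all windows. The AP-1 letters matched 30 bases before the second start of Il15ra, and those of FOXO 38 bases before Il21r, with 6.75% and 3.17% of all windows. No window of these genes held that NF-kappaB string, which 0.14% of all windows hold. A match is a string of letters and not a measured binding site, and a missing match says only that the letters are not in that window.

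Stimulation for 12 h exchanged the private receptor chains of these cells. Il2ra rose 23.7-fold, Il12rb2 6.84-fold and Il15ra 3.64-fold, while Il7r fell 30.6-fold, Il6ra 12.2-fold, Il6st 2.82-fold, Il2rg 2.01-fold and Il4ra 1.59-fold. Thus 3 of the 10 receptor genes rose, 5 fell, and Il2rb and Il21r did not pass the threshold of an adjusted p of 0.05. Among all genes tested, 39.5% passed in this comparison, 19.2% upward and 20.2% downward. In each of the 8 genes that passed, no stimulated library overlapped a naive library. Among all genes, 19.8% lay above and 21.7% below without overlap. The median log2 change was -0.39 over the receptor genes and -0.22 over all genes tested. Scaling by library totals alone moved the all-gene median to -0.71, and the same 8 receptor genes were called in the same directions under that scaling. In bulk RNA, fewer cells of a type and less RNA per cell cannot be told apart.

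**Figure D1:**
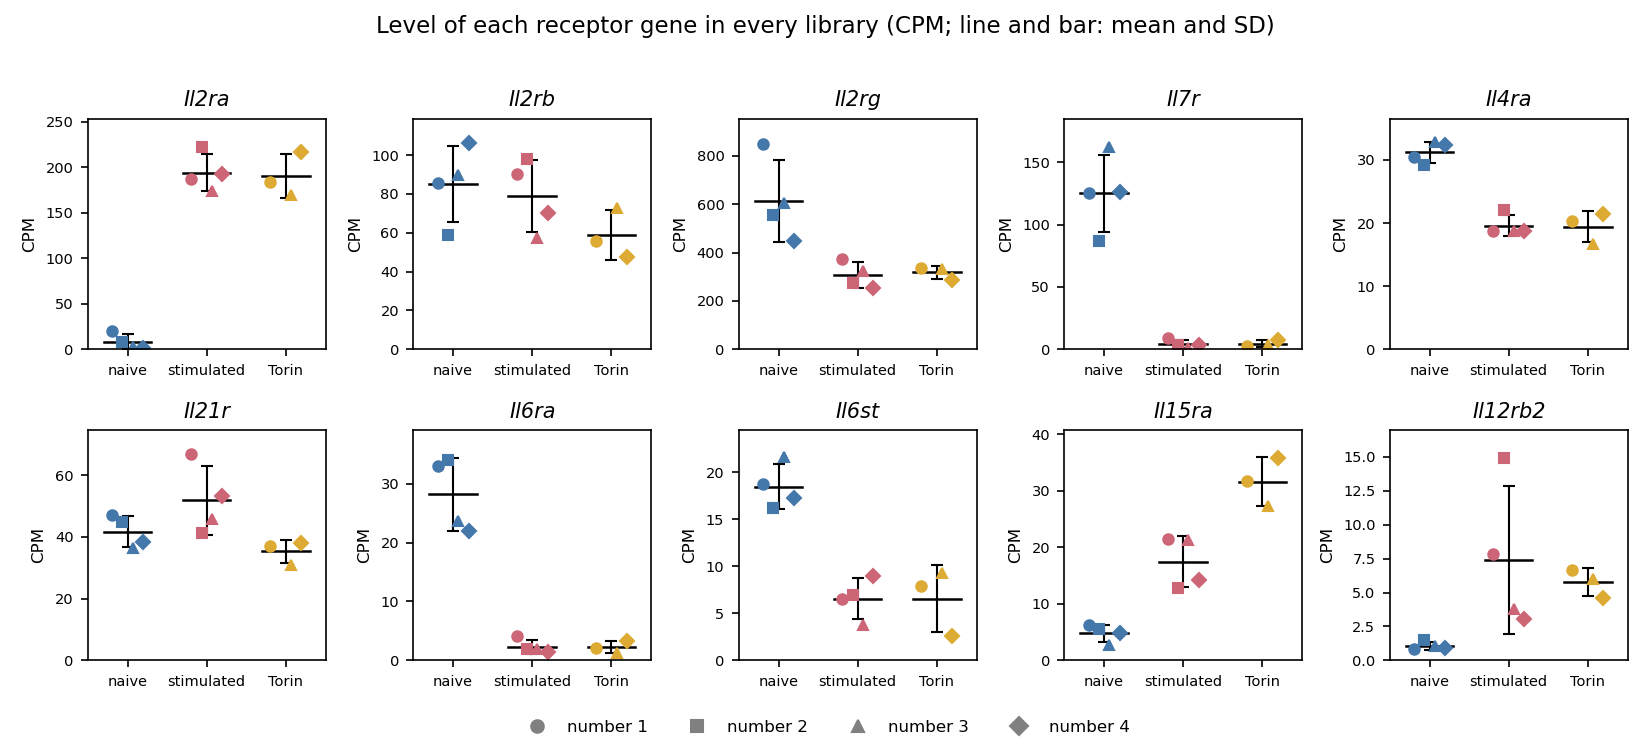
Level of each receptor gene (y axis, CPM from 0) in every naive, stimulated and Torin library (x axis); marker shapes give the library number, and lines and bars give the mean and SD. Il2ra, Il15ra and Il12rb2 stand higher in all stimulated and Torin libraries than in any naive library, Il7r, Il6ra, Il6st, Il2rg and Il4ra stand lower, and Il15ra is the gene whose Torin libraries all lie above the stimulated ones.

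The shared chains came down or stayed within their spread. Levels are given as CPM, counts relative to the library total after scaling for composition, and do not account for gene length. Il2rg stood at 849, 556, 603 and 449 CPM in naive 1 to 4 and at 372, 273, 324 and 253 CPM in stimulated 1 to 4. Its groups were separate, with a mean of 614 ± 170 (SD, n = 4) against 305 ± 53.5 CPM (SD, n = 4). The log2 change was -1.01 (SE 0.20; edgeR quasi-likelihood test, adjusted p = 0.00198). Il2rb had 85.6, 59.1, 89.5 and 107 CPM in the naive and 90.1, 97.9, 57.3 and 70.3 CPM in the stimulated libraries. These ranges overlapped almost fully, and the log2 difference of Il2rb was -0.11 (SE 0.22; edgeR adjusted p = 0.735). This value depended on the scaling, and with library totals alone it was -0.57 (SE 0.26; edgeR adjusted p = 0.105).

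Il2ra, the high-affinity IL-2 chain also known as CD25, had 187, 223, 174 and 193 CPM in stimulated 1 to 4. In naive 1 to 4 it had 19.8, 8.19, 2.92 and 1.76 CPM, so naive libraries differed among themselves by a wide margin and naive 1 was the highest. Its log2 change was 4.57 (SE 0.67; edgeR adjusted p = 0.000283). Leaving out naive 1 raised the log2 change to 5.50. Naive 1 also held the most Il2 (26.4 CPM), Gzmb (45.6 CPM) and Cish (16.9 CPM) among naive libraries, genes that respond to T cell activation, and their part in the level of Il2ra was not tested. Il15ra went from 6.23, 5.48, 2.65 and 4.77 CPM before to 21.4, 12.9, 21.2 and 14.2 CPM after stimulation, with no overlap. The log2 change of Il15ra was 1.86 (SE 0.28; edgeR adjusted p = 0.000297).

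Il7r, the chain for the survival cytokine IL-7, showed the mirror pattern. It stood at 125, 87.0, 163 and 126 CPM in naive 1 to 4 and at 8.92, 3.42, 0.596 and 3.43 CPM in stimulated 1 to 4. Even the highest stimulated library was far below the lowest naive one. The log2 change of Il7r was -4.94 (SE 0.74; edgeR adjusted p = 0.000322), and it was -5.66 without stimulated 1. Il4ra, the chain for IL-4, was tightly grouped at 30.5, 29.1, 32.8 and 32.4 CPM without peptide and at 18.8, 22.1, 18.7 and 18.7 CPM with it. This smaller step, a log2 change of -0.67 (SE 0.13), still passed the test (edgeR adjusted p = 0.00144). Il21r, the chain for IL-21, had 46.9, 44.8, 36.5 and 38.3 CPM without peptide and 67.0, 41.2, 45.8 and 53.1 CPM with it. Its groups overlapped, and the log2 difference was 0.31 (SE 0.17; edgeR adjusted p = 0.163), or -0.16 when scaled by library totals alone.

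Both chains of the IL-6 receptor fell. Il6ra, which binds the cytokine, had 33.0, 34.1, 23.7 and 22.0 CPM in naive libraries and 4.09, 1.87, 1.91 and 1.39 CPM in stimulated ones. Its log2 change of -3.61 (SE 0.41) had the smallest adjusted p of the 10 genes (edgeR, 5.86e-05). Il6st fell less, from 18.7, 16.2, 21.6 and 17.3 CPM to 6.53, 6.93, 3.72 and 9.01 CPM, a log2 change of -1.50 (SE 0.37; edgeR adjusted p = 0.00789). Myeloid cells are also known to carry Il6ra and Il6st, and the summed CPM of 10 monocyte and macrophage markers was 292 to 2368 in naive and 28.4 to 131 in stimulated libraries. Without the libraries of number 2, where the sum of 2368 was found, the log2 change of Il6ra was -3.41 and that of Il6st -1.58, and both stayed called. That fit still held a difference in these markers. Their sums were 323, 292 and 362 CPM in naive 1, 3 and 4 and 53.4, 28.4 and 32.7 CPM in stimulated 1, 3 and 4. The part of these markers' cells in the levels of Il6ra and Il6st was not tested.

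Il12rb2, the IL-12 receptor chain that is low in resting T cells, was at 0.854, 1.48, 1.10 and 0.895 CPM in naive libraries. It reached 7.83, 15.0, 3.77 and 3.05 CPM in stimulated 1 to 4, so all 4 lay above the naive range but differed widely from each other. The log2 change was 2.77 (SE 0.48; edgeR adjusted p = 0.000806) and fell to 2.17 without stimulated 2. Its partner chain Il12rb1 rose with it, from 1.05 ± 0.764 to 10.5 ± 4.65 CPM (SD, n = 4 each), a log2 change of 3.32 (SE 0.53), or 3.94 without naive 2.

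**Figure D2:**
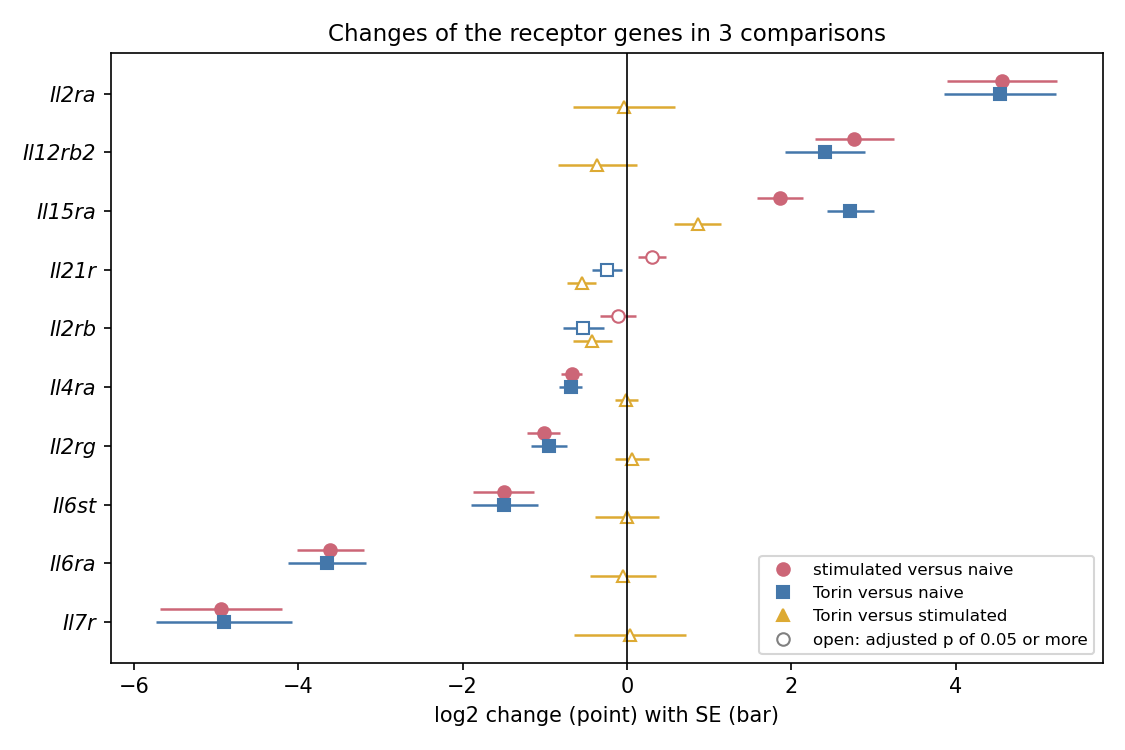
Log2 change of each receptor gene (x axis, points) with its SE (bars) in stimulated against naive, Torin against naive and Torin against stimulated libraries; open symbols have an adjusted p of 0.05 or more. The first comparison runs from -4.94 for Il7r to 4.57 for Il2ra, while every value of Torin against stimulated lies between -0.55 and 0.86 with open symbols.

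In mean level, the receptor RNAs of cells stimulated with Torin lay near those of stimulated cells, with Il15ra and Il21r farthest apart. A missing call does not show equal levels, and the SEs are given below. None of the 10 receptor genes was called by edgeR between Torin and stimulated libraries, where 4.62% of all genes were called (2.32% higher, 2.3% lower). By unadjusted p under 0.05 there were 2, Il15ra and Il21r, against 20.0% of all genes. The same 2 genes were those without overlap between the groups, 1 higher and 1 lower, against 9.56% and 10.1% of all genes. The median log2 difference was -0.02 both over the receptor genes and over all genes.

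Il15ra had 31.7, 27.3 and 35.9 CPM in Torin 1, 3 and 4, above all 4 stimulated libraries and higher in each of 3 same-numbered pairs. The log2 difference was 0.86 (SE 0.29), a 1.82-fold higher mean level, with an unadjusted p of 0.0119 and an edgeR adjusted p of 0.121. Over the 18 alternatives for Il15ra that kept all libraries or left out 1, the adjusted p lay between 0.0518 and 0.253, and it was 0.268 and 0.406 without the libraries of number 2 and of number 4, so Il15ra was called in none of these. Il21r had 37.1, 31.0 and 38.0 CPM with Torin, below all stimulated libraries and lower in each of 3 pairs. Its log2 difference was -0.55 (SE 0.18; edgeR adjusted p = 0.122). DESeq2 called Il21r (-0.57, adjusted p = 0.0308), where it called 13.7% of all genes. A filter at a mean of 5 CPM did so too in edgeR (-0.57, adjusted p = 0.0452), with 16.1% of genes called.

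Il2ra stayed at its stimulated level with Torin, at 184, 170.0 and 217 CPM, a log2 difference of -0.03 (SE 0.62) from stimulated. Il7r stayed low at 2.21, 2.95 and 7.43 CPM, a difference of 0.04 (SE 0.68). These SEs rest on a common spread per gene over all groups, the naive one included. For Il2ra the naive libraries ran from 1.76 to 19.8 CPM, while the stimulated ones lay at 174 to 223 CPM. With that common spread, the SEs of both genes leave room for a difference of some size in either direction. For Il2rg (0.06, SE 0.21) and Il4ra (-0.01, SE 0.14) the error was narrower. Il2rb, at 56.0, 72.9 and 47.5 CPM, had a log2 difference of -0.42 (SE 0.24; edgeR adjusted p = 0.369). Il6ra had 2.18, 1.21 and 3.33 CPM with Torin, Il6st 7.87, 9.27 and 2.57 CPM, and Il12rb2 6.63, 6.02 and 4.61 CPM, all within or overlapping their stimulated ranges. The log2 differences of Il6ra, Il6st and Il12rb2 were -0.05 (SE 0.40), 0.0 (SE 0.39) and -0.36 (SE 0.48). These SEs also leave room for a difference in either direction.

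Against the naive libraries, the Torin libraries gave 3 receptor genes higher and 5 lower, where 32.2% of all genes were called (16.4% higher, 15.8% lower). The same number of receptor genes, 3 above and 5 below, had no overlap between the groups, against 21.1% and 22.4% of all genes. This comparison shares its naive libraries with that of stimulated against naive, so these results are not independent of each other. The log2 changes were 4.54 for Il2ra, 2.72 for Il15ra, 2.41 for Il12rb2, -4.90 for Il7r, -3.65 for Il6ra, -1.49 for Il6st, -0.95 for Il2rg and -0.68 for Il4ra. The value of Il2ra was 5.47 without naive 1, and that of Il7r was -5.49 without Torin 4. Il2rb (-0.53, SE 0.25; edgeR adjusted p = 0.121) and Il21r (-0.24, SE 0.18) did not pass. The median log2 change was -0.61 over the receptor genes and -0.18 over all genes.

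Levels of different genes were compared within a library as TPM, the share of all transcripts after division by transcript length. In naive libraries Il2rg was highest at 446 ± 213 TPM (SD, n = 4), followed by Il7r at 56.2 ± 17.4 TPM. Il2rb and Il21r came next at 22.7 and 19.3 TPM and overlapped each other. Below them came Il4ra (7.79 TPM), Il2ra (5.70 TPM), Il6ra (4.68 TPM), Il15ra (3.63 TPM) and Il6st (3.49 TPM), where neighbours among these genes overlapped. Il12rb2 stood apart at 0.400 TPM. In stimulated libraries Il2rg (136 TPM) and Il2ra (75.9 ± 14.1 TPM) led without overlap, then came Il21r (16.1 TPM), Il2rb (14.1 TPM) and Il15ra (9.47 TPM), overlapping in turn. Il4ra (3.004 TPM), Il7r (2.04 TPM), Il12rb2 (1.87 TPM), Il6st (0.855 TPM) and Il6ra (0.275 TPM) closed the order, each overlapping the next. With Torin, Il15ra followed Il2rg and Il2ra at 19.3 ± 3.35 TPM (SD, n = 3), above Il21r (12.0 TPM) and Il2rb (11.5 TPM) in every library. That place depended on the length used: with the longest transcript of each gene, Il15ra, Il21r and Il2rb had 14.3, 14.8 and 14.7 TPM. With that length Il7r (50.1 TPM) also overlapped Il2rb in naive libraries, and Il2ra (41.2 TPM) overlapped Il21r in stimulated libraries. Both still ranked directly after Il2rg in every library of those groups.

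The private gamma-family chains Il2ra, Il4ra, Il7r, Il9r, Il15ra and Il21r were summed in each library to describe their make-up. Il7r made up 55.1%, 50.3%, 70.4% and 67.0% of the sum in naive 1 to 4 and 0.150% to 2.42% in stimulated libraries. Il2ra made up 12.3%, 6.79%, 1.55% and 1.01% in naive and 66.1%, 77.4%, 71.2% and 71.0% in stimulated libraries. Thus the leading private chain changed from Il7r to Il2ra in every library. The share of Il15ra was 3.99% ± 1.23 in naive, 9.08% ± 2.59 in stimulated (SD, n = 4 each) and 14.8% ± 0.967 in Torin libraries (SD, n = 3). That of Il21r ran the other way, at 21.3%, 15.0% and 9.26%. Il4ra made up 8.61%, 2.78% and 2.54%, and Il9r was at or near 0 in all libraries. With the longest transcript of each gene Il21r made up 27.3%, 26.8% and 18.7% and Il4ra 9.67%, 4.85% and 4.88%, and Il7r still led in every naive and Il2ra in every other library.

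**Figure D3:**
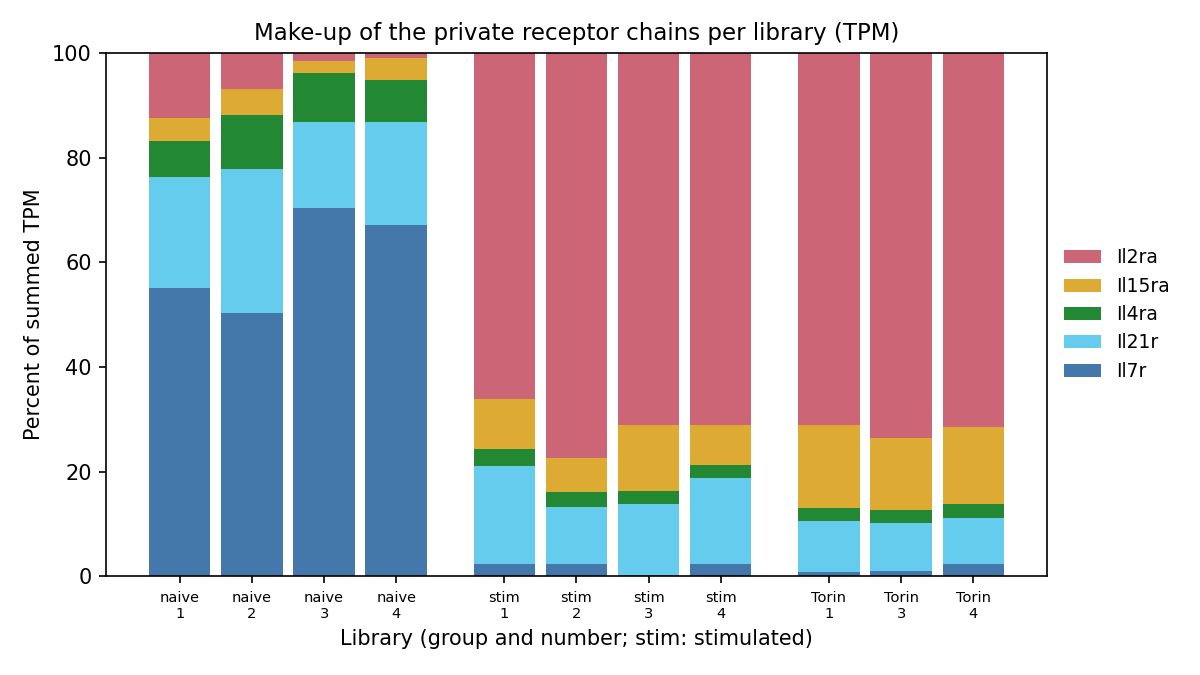
Make-up of the private chains in each library (x axis), as percent of their summed TPM (y axis, 0 to 100); colours stand for Il7r, Il21r, Il4ra, Il15ra and Il2ra, and Il9r is too low to be seen. Il7r leads in the 4 naive libraries (50.3% to 70.4%) and Il2ra in all stimulated (66.1% to 77.4%) and Torin libraries (71.1% to 73.5%).

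The total of the private chains stood at 92.6 ± 27.0, 107 ± 20.5 and 130 ± 19.3 TPM in naive, stimulated and Torin libraries, with overlapping ranges. The order of these totals depended on the length used, and with the longest transcript of each gene they were 88.1, 72.5 and 79.4 TPM. The ratio of Il2rg to that total was 3.51 to 5.87 in naive libraries, 1.08 to 1.502 in stimulated and 0.974 to 1.46 in Torin libraries. With the longest transcript the ratio was 4.51 to 7.58, 2.002 to 2.75 and 1.99 to 2.97, so the values depend on the length, while every stimulated and Torin library lay below every naive one with both lengths. Il2ra over Il2rb, the 2 chains that join Il2rg in the high-affinity IL-2 receptor, was 0.0316 to 0.548 in naive, 4.63 to 7.28 in stimulated and 5.83 to 11.3 in Torin libraries. With the longest transcript it was 0.0157 to 0.2201, 1.98 to 2.88 and 2.22 to 4.33. Il15ra over Il2rb was 0.0949 to 0.235, 0.430 to 1.28 and 1.10 to 2.32 in the same order, and 0.0536 to 0.168, 0.238 to 0.670 and 0.678 to 1.37 with the longest transcript. The signalling chain Il6st stood below Il6ra in every naive library (ratio 0.568 to 0.903) and above it in every stimulated (2.18 to 7.65) and Torin library (2.15 to 8.31), but with the longest transcript the ratio in Torin 4 was 0.766. These ratios are descriptions of RNA, with no test.

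Transcripts could be tested for a changed share within their gene for 16 transcripts of 7 receptor genes, among 13221 transcripts of 5076 genes. Only 1 was called in stimulated against naive libraries, where 9.7% of all transcripts were called. It was Il15ra-208, annotated as a retained intron, whose share of Il15ra counts was 13.4%, 9.46%, 9.44% and 11.5% in naive and 1.60%, 4.90%, 6.89% and 8.63% in stimulated libraries. The log2 ratio to the other transcripts changed by -1.45 (SE 0.36; limma adjusted p = 0.0315), and fitting the replicate number as a block gave an adjusted p of 0.0776. The call was also lost without any 1 of the 4 naive libraries and without stimulated 2 or 3. The protein-coding transcript Il15ra-210 held under 5% of the mean CPM of Il15ra over all libraries, the minimum for a test, and was not tested. Its share within a library was 21.9% to 27.7% in naive, 0.0522% to 5.17% in stimulated and 1.01% to 2.999% in Torin libraries. Il15ra-201, the main coding transcript, held 41.7% ± 4.91 in naive and 62.5% ± 17.9 in stimulated libraries (SD, n = 4 each; limma adjusted p = 0.185).

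No receptor transcript was called in Torin against stimulated libraries by limma, none had an unadjusted p under 0.05, and 0.166% of all transcripts were called. In Torin against naive libraries none was called by limma either, with 1 at an unadjusted p under 0.05 and 3.11% of all transcripts called. Il2ra was split between Il2ra-201 (8 exons) and the shorter Il2ra-202 (2 exons, 1013 nt), with 59.5% ± 3.73 and 40.5% ± 3.69 in stimulated libraries (SD, n = 4 each). With Torin the shares were 51.2% ± 1.22 and 48.8% ± 1.22 (SD, n = 3 each), and the log2 ratio of Il2ra-202 differed by 0.48 (SE 0.24; limma adjusted p = 0.570). Some splits varied between libraries of one group more than between groups. Il4ra-205, annotated for nonsense-mediated decay, ranged from 0.585% to 81.9% of Il4ra among naive libraries, and Il6st-203 from 0% to 95.6% of Il6st among stimulated libraries.

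The ligands of these receptors were followed in a list of 18 genes, of which 5 rose and 1 fell with stimulation, with a median log2 change of 2.32. Fitting the numbers as a block gave 9 ligand genes that rose and 2 that fell. Counts in this and the next lists stand beside the shares of all genes given above. These were 19.2% higher and 20.2% lower with stimulation, and 16.4% and 15.8% for Torin against naive. For Torin against stimulated they were 2.32% and 2.3%. In that comparison 20.0% of all genes had an unadjusted p under 0.05. DESeq2 called 13.7% of genes there in either direction, and edgeR with a mean of at least 5 CPM called 16.1%. With only the libraries compared edgeR called 975 of 19754 genes, and with the replicate block 965 of 22238. Il2 rose from 26.4, 9.46, 1.42 and 2.88 CPM in naive to 325, 543, 284 and 373 CPM in stimulated libraries, a log2 change of 5.24 (SE 0.86; edgeR adjusted p = 0.000612), or 6.37 without naive 1. In Torin libraries Il2 stood at 78.4, 37.1 and 107 CPM, below all stimulated libraries, with a log2 difference of -2.36 (SE 0.85; edgeR adjusted p = 0.149). Il21, the ligand of Il21r, was at most 0.104 CPM in naive libraries and at 1.74, 17.7, 0.615 and 7.18 CPM in stimulated ones, a log2 change of 6.98 (SE 1.65) that was 5.89 without stimulated 2 and 7.57 without naive 1. Il15 and Il7, which other cells are known to supply, were low and did not pass, with log2 differences of -0.56 and -0.65. No ligand gene was called by edgeR in Torin against stimulated libraries, 4 had an unadjusted p under 0.05 and the median was -1.21, while DESeq2, and edgeR with only the libraries compared, called 3 of them lower. Against naive, Torin libraries had 3 ligand genes higher and 1 lower, and 0 and 1 without the libraries of number 4.

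**Figure D4:**
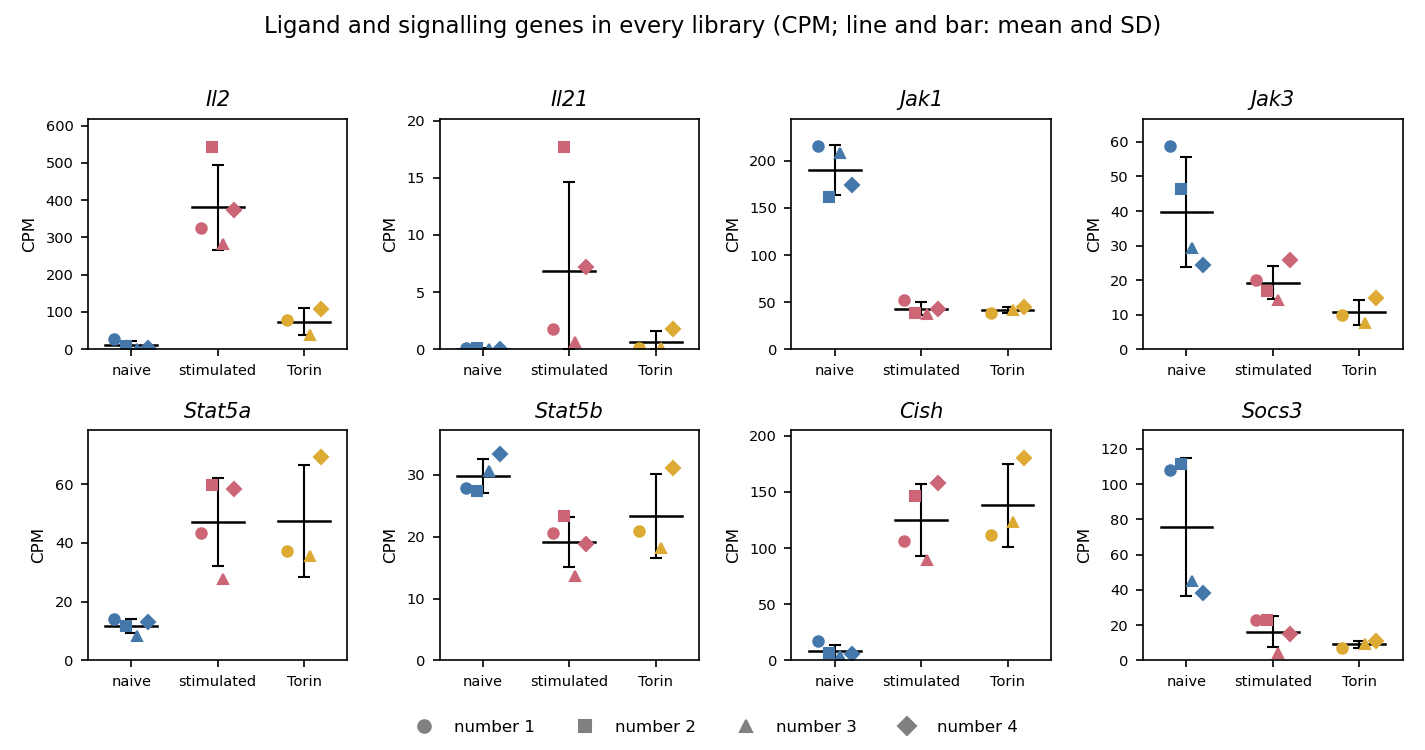
Level (y axis, CPM from 0) of the ligands Il2 and Il21, the kinases Jak1 and Jak3, the factors Stat5a and Stat5b and the inhibitors Cish and Socs3 in every library (x axis); shapes give the library number, lines and bars the mean and SD. Il2 stands at 284 to 543 CPM in stimulated and 37.1 to 107 CPM in Torin libraries, while Jak1 is at 161.6 CPM or more in naive libraries and at 52.5 CPM or less in all others.

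Downstream of the receptors, 4 of 25 kinase, STAT and inhibitor genes rose with stimulation and 9 fell, with a median log2 change of -0.27, and with library totals alone 2 rose and 12 fell. Jak1, the kinase of most partner chains, fell from 190.4 ± 26.3 to 42.8 ± 6.89 CPM (SD, n = 4 each), a log2 change of -2.15 (SE 0.15; edgeR adjusted p = 7.03e-06). Jak3, the kinase of Il2rg, went from 58.9, 46.4, 29.2 and 24.2 CPM to 20.1, 17.0, 14.4 and 25.8 CPM. These ranges overlap, and the call of Jak3 (-1.04, SE 0.31; edgeR adjusted p = 0.0217) was lost without naive 1 or 2 or stimulated 2 or 3. Of the STAT5 pair, Stat5a rose from 11.7 ± 2.48 to 47.2 ± 15.0 CPM (SD, n = 4 each; log2 2.01, SE 0.30). Stat5b stood at 29.9 ± 2.73 and 19.2 ± 4.06 CPM (SD, n = 4 each; log2 -0.64, SE 0.20), a call that was lost without naive 3 or 4 or stimulated 3 or 4. Cish, a feedback inhibitor that STAT5 is known to induce, rose from 8.22 ± 5.88 to 125 ± 32.4 CPM (SD, n = 4 each; log2 3.93, SE 0.46), or 4.55 without naive 1. Socs3, an inhibitor that binds gp130, fell from 75.7 ± 39.4 to 16.2 ± 8.72 CPM (log2 -2.22, SE 0.51). In Torin against stimulated libraries edgeR called 1 gene of this list, Jak2 (log2 0.94, SE 0.19; edgeR adjusted p = 0.0232). Its level was 19.9, 15.5 and 23.3 CPM against 8.94 to 11.1 CPM, and the call was lost without stimulated 2, 3 or 4 or Torin 1 or 4. Of the 25 genes, 12 had an unadjusted p under 0.05 there, DESeq2 called 4 higher and 2 lower, a mean of at least 5 CPM gave 3 and 2, and the replicate block gave 2 and 1. Torin against naive gave 5 of these genes higher and 8 lower, and 5 and 5 without the libraries of number 4.

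Of 19 genes known to be activated by IL-2 and STAT5, 10 rose with stimulation and 1 fell, with a median log2 change of 1.98. They included Myc, a driver of growth, which rose from 30.1 ± 15.8 to 257 ± 14.2 CPM (SD, n = 4 each; log2 3.10, SE 0.34), and Gzmb, a cytotoxic protease (log2 5.68, SE 1.08; 7.11 without naive 1). T cell receptor signals are also known to induce several of these genes, so the list does not separate these inputs. In Torin against stimulated libraries 1 rose and 1 fell, with a median of 0.14. There 9 of the 19 had an unadjusted p under 0.05, DESeq2 called 2 higher and 4 lower, a mean of at least 5 CPM gave 2 and 3, and none was called without the libraries of number 4. Prf1, the pore protein perforin, fell from 92.0, 36.4, 33.3 and 71.4 CPM to 6.15, 9.09 and 9.08 CPM (log2 -2.85, SE 0.41; edgeR adjusted p = 0.00676; 0.0793 without the libraries of number 4). Pim1 stood at 127 to 151 CPM in stimulated and 252, 344 and 285 CPM in Torin libraries (log2 1.06, SE 0.22), a call lost in 7 of 20 alternatives: without stimulated 2 or 4, without Torin 1 or 3, without the libraries of number 2 or of number 4, and with the description prefix. Against naive, Torin libraries had 10 of these genes higher.

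Other chains of the gamma, gp130 and IL-12 receptor families were measured in 15 of 23 listed genes. With stimulation 1 rose, Il12rb1, and 4 fell, or 2 without naive 2 or stimulated 3, with a median log2 change of -0.78. Il11ra1, the IL-11 chain that signals through gp130, fell from 4.60, 6.06, 4.52 and 3.13 CPM to 0.209, 1.14, 0.341 and 1.85 CPM (log2 -2.37, SE 0.65; -3.02 without stimulated 4), with an edgeR adjusted p of 0.0515 without the libraries of number 2. Csf3r, the receptor for the granulocyte growth factor G-CSF, was at 10.5 CPM in naive 2 and at or under 1.12 CPM elsewhere, and its call (log2 -5.20) was lost without naive 2 (-3.38) or stimulated 3 (-5.02). Naive 2 was also the library with a summed CPM of 8581 over 10 granulocyte markers, against at most 177 in the other naive libraries. In Torin against stimulated libraries edgeR called none of the 15, Il12rb1 (-1.26, SE 0.54; adjusted p = 0.221) included, 2 had an unadjusted p under 0.05 and the median was -0.72, while DESeq2 called 1 lower. Torin against naive libraries gave 1 of these chains higher and 4 lower, with 1 and 7 without naive 1 and 0 and 2 without the libraries of number 4.

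The genes whose pattern over the 11 libraries lay nearest to those of Il2ra and Il7r were found by the mean absolute difference between log2 deviations from each gene's own mean, among 5577 genes. For Il2ra they were Slamf1 (0.35), a receptor of activated lymphocytes, Exoc2 (0.39), a part of the exocyst, Arhgdig (0.41) and Utf1 (0.43). Slamf1 stood at 2.35 ± 1.95, 36.4 ± 8.004 and 55.0 ± 13.4 CPM in naive, stimulated and Torin libraries. For Il7r they were Aqp3 (0.42), a channel for water and glycerol, Zfp945 (0.46), Itgb7 (0.55), an integrin chain, and Cdc25b (0.55), a cell cycle phosphatase. Aqp3 stood at 50.6 ± 4.01, 1.34 ± 1.68 and 1.13 ± 0.561 CPM in the same order. The likeness is a description over libraries that share their group differences.

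The cell label was checked with marker lists. The 10 CD8 T cell markers were all present, with sums of 5049 to 6497 CPM in naive, 2371 to 2783 in stimulated and 3499 to 3584 in Torin libraries, and 7 of them fell and 1 rose with stimulation. Granulocyte markers reached 8581 CPM in naive 2 and 2071 in stimulated 2, and were at most 177 elsewhere. Among B cell markers, Igkc reached 13130 CPM or more in naive 4, stimulated 4 and Torin 4 and did not pass 16.9 CPM elsewhere. Sums for CD4 and regulatory T cell markers were 20.1 to 107 CPM. Foxp3, which marks regulatory T cells rich in Il2ra, was at most 1.33 CPM and Cd4 at most 0.0288 CPM in any library. Other members of that list stood higher. Ctla4 reached 77.4 CPM and Cd40lg 18.6 CPM in stimulated 2, Ikzf2 18.3 CPM in naive 4, Nrp1 9.43 CPM in stimulated 4 and Zbtb7b 2.675 CPM in naive 2. Of the 6 members of that list that were tested, 2 rose and 0 fell with stimulation. Markers of dendritic cells summed to 5.47 to 51.6 CPM, of NK, gamma-delta and invariant T cells to 93.3 to 397 CPM, of erythroid cells and platelets to 149 to 916 CPM and of stromal and endothelial cells to 1.82 to 21.6 CPM. Without the libraries of number 2, and likewise without those of number 4, the same 8 receptor genes were called in both comparisons with naive and none between Torin and stimulated libraries, except that Il2rb was also called between Torin and naive without number 2 (-0.68, edgeR adjusted p = 0.0483).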

How the data were processed

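Gene and transcript tables for 11 libraries were used as deposited by the authors, with values that are estimated counts in whole numbers, so nothing was rounded. Per the labels' protocols, RNA was isolated with a miRNeasy Micro kit and a SMARTer kit for ultra-low poly(A) input was used. Per the submitters' processing notes, StringTie 2.1.0, STAR 2.7.1a, DESeq2 1.30.1, SAMtools 1.9 and R 4.0.5 were used with genome build mm39, with no role named. StringTie derives counts from coverage, and reads shared by near-identical genes can be split between them. Library totals were equal in both tables in 11 libraries and differed by at most 1.68 times. No counting error was derived from them, only the error between libraries. The tables had 0 unused columns of sample values. Columns headed Control were matched to the stimulated libraries.

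Symbols and transcript lengths came from GENCODE M21 on GRCm38, matched by identifier without version. This named 52081 genes (94.0%) and 97.1% of transcripts, which held at least 99.2% of counts. TPM was computed from the deposited counts and these lengths. Genes were tested with edgeR 4.0.16 (R 4.3.3) in its quasi-likelihood framework. A single model of the group means held all 11 libraries, scaled by TMM and filtered with filterByExpr (minimum count of 10). Benjamini-Hochberg adjustment covered all 22238 genes, with a threshold of 0.05. The common biological coefficient of variation was 0.791. Transcript shares were tested with limma 3.58.1 on log2 ratios with 0.5 CPM added, for transcripts with a mean of at least 0.5 CPM that held at least 5% of their gene's mean CPM over all libraries, over 13221 transcripts.

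The receptor genes, 6 gene lists (ligands, kinases and STAT factors, genes activated by IL-2 and STAT5, other chains of the same families, other cytokine receptors, and trafficking and shedding genes) and 9 marker lists were chosen with earlier results of these data known. Named genes were the receptors, up to 2 largest rises and 2 largest falls among called genes per list and comparison, 11 fixed signalling genes, and the 4 genes nearest in pattern to Il2ra and to Il7r with a mean of at least 10 CPM. Mcl1, Tslp, Il9, Lif, Rnf128 and others that this rule admits are counted but not described. Gzmb and Cish values beside naive 1, and marker genes of single libraries, were chosen after their values were seen.

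Deviations from group means correlated between libraries of the same number at 0.157, 0.226, 0.153 and 0.286 for numbers 1 to 4 in stimulated and naive libraries. For Torin and stimulated libraries the values were 0.115, 0.149 and 0.306, so numbers were taken to pair the libraries in both comparisons. For Torin and naive libraries they were 0.081, 0.134 and 0.276. Each was the highest value of its Torin library with any naive library, but the first lay close to the 0.07 of Torin 1 with naive 3. Fits without the number were kept as the reported ones.

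Alternatives were library totals alone, DESeq2 1.42.0, no filter, a mean of at least 5 CPM, the number as a block, the prefix of the library descriptions, only the libraries compared and leaving out each of 11 libraries. Leaving out the libraries of number 2 or of number 4 was added after seeing the data. The steps were tested on simulated data, in which each gene took the spread of the trend at its level and none of its own. The shares recovered therefore do not tell how readily changes of the receptor genes themselves would be called. In stimulated against naive, 10% of genes changed 2-fold and 70% of those changed 4-fold were recovered, with 4 false calls among 21165 genes. In Torin against stimulated, 3% and 64% were recovered, with 1 false call among 21182 genes. A search for a motif in the receptor proteins was not run here.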

Additional observations from a re-analysis of the deposited data

Results flagged for a closer look

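In 20 sets of 4 libraries, 1 library of 1 gene stood farther from the rest than Dixon's test allows, where chance is set to give about 1 in 20. It was Il4ra in stimulated 2, at 22.1 CPM against 18.7, 18.7 and 18.8 CPM in the other stimulated libraries. Stimulated 2 also held granulocyte markers at a summed 2071 CPM where no other library of its group passed 41.7 CPM, and their part in the level of Il4ra was not tested. Without the libraries of number 2 the log2 change of Il4ra was -0.77 (edgeR adjusted p = 0.0044) against -0.67 with them.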

How the results depend on the processing

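Each of the 8 receptor genes called in either comparison with naive stayed called in the same direction in every alternative that tested it (159 of 159 values in each comparison); Il12rb2 was not tested with a mean of at least 5 CPM. Calls on the other receptor genes and the counts below depended on the setting, and the cause was not tested. Values near 0 carry no stable sign. The spread of Il12rb2, Il6ra and Il7r among stimulated libraries (highest over lowest 4.90, 2.95 and 15.0) limits their precision. Where leaving out libraries left 2 in the Torin group, their spread was assumed to be that of the model.

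No receptor gene was called between Torin and stimulated libraries, except 1 (Il21r) with DESeq2 and 1 (Il21r) with a mean of at least 5 CPM. Over all genes that comparison gave 1027 calls, and 2959 with DESeq2, 656 with no filter, 675 with the description prefix, 338 without the libraries of number 2 and 55 without those of number 4. Leaving out 1 library gave 144 (without Torin 3) to 1058, and counts also moved by more than 1.5 times without Torin 1 (261), Torin 4 (541), stimulated 2 (463) and stimulated 4 (441). The split of calls in stimulated against naive libraries was 4272 higher and 4501 lower, and 2600 and 6529 with library totals alone. Torin against naive gave 3648 and 3515, and 2284 and 4553 with library totals alone. Torin against stimulated gave 515 and 512, and 719 and 345 in that setting. Library totals alone moved the all-gene medians of these comparisons to -0.71, -0.52 and 0.11.

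Receptor transcripts with a changed share in stimulated against naive libraries numbered 1, and 4 with 2 CPM added, 0 with a share of at least 10% and 0 with the replicate block; leaving out 1 library gave 0 to 2. In Torin against naive libraries they numbered 0, and 2 with 2 CPM added, with 0 to 1 on leaving out a library. The share of Il2ra in the private chains of stimulated libraries was 71.4%, and 57.2% with the longest transcript of each gene.

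Signs turned only among differences that were not called. For stimulated against naive, Il2rb ranged from -0.25 to 0.09 on leaving out 1 library (0.01 without naive 4, 0.09 without stimulated 3) and 0.17 without the libraries of number 4, and Il21r was -0.16 with library totals alone. For Torin against stimulated, library totals alone gave 0.11 for Il2ra, 0.13 for Il4ra and 0.07 for Il6ra. The replicate block gave 0.09 for Il2ra, 0.0 for Il4ra, 0.01 for Il6ra, -0.1 for Il6st and 0.16 for Il12rb2, and it changed no call of a receptor gene. The description prefix gave 0.09 for Il2ra, 0.01 for Il4ra, 0.09 for Il6ra, -0.02 for Il6st and 0.16 for Il12rb2. Il4ra was 0.0 with no filter and 0.01 with only the libraries compared, and Il6st was -0.01 with DESeq2 and -0.02 with a mean of at least 5 CPM. Without the libraries of number 2, Il2ra was 0.04, Il7r -0.04, Il4ra 0.05 and Il12rb2 0.24, and without those of number 4 Il7r was -0.72. On leaving out 1 library, Il2ra ranged from -0.12 to 0.05, Il2rg from -0.02 to 0.16, Il7r from -0.64 to 0.76, Il4ra from -0.07 to 0.09, Il6ra from -0.43 to 0.38, Il6st from -0.33 to 0.41 and Il12rb2 from -0.62 to 0.24. Il2rb in Torin against naive libraries was called with library totals alone (-0.88), with a mean of at least 5 CPM (-0.70) and without the libraries of number 2 (-0.68).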

Other observations

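Receptors for cytokines outside these families were measured in 17 genes known from T cells. With stimulation 11 of them fell and edgeR called none higher, beside 20.2% and 19.2% of all genes, with a median log2 change of -1.39 against -0.22 over all genes. DESeq2 called 12 lower and none higher. Ifngr1, the ligand-binding chain of the interferon-gamma receptor, fell from 556, 269, 501 and 348 CPM to 59.6, 15.2, 14.2 and 17.9 CPM (log2 -3.97, SE 0.50; -4.73 without stimulated 1). Il18r1, the IL-18 receptor chain, fell from 12.0 ± 3.58 to 1.29 ± 0.4995 CPM (SD, n = 4 each; log2 -3.22, SE 0.56). In Torin against naive libraries 10 of the 17 fell, where 15.8% of all genes did, with a median of -1.70. In Torin against stimulated libraries 1 of the 17 rose, Tgfbr1, a TGF-beta receptor kinase, at 3.24, 3.51 and 4.36 CPM against 1.39 to 2.40 CPM (log2 1.05, SE 0.24; edgeR adjusted p = 0.0371). The call of Tgfbr1 was lost in 13 of 19 alternatives, among them the replicate block (adjusted p = 0.0644) and leaving out any 1 of stimulated 1, 2 or 3, naive 3 or the Torin libraries.

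Among 11 genes of receptor trafficking and shedding, 3 rose and 2 fell with stimulation (2 and 4 with library totals alone), with a median log2 change of -0.34. Eea1, a tether of early endosomes, rose from 3.97 ± 1.33 to 34.0 ± 15.7 CPM (SD, n = 4 each; log2 3.10, SE 0.35). The ubiquitin ligases of the Cbl family went in opposite directions: Cbl fell from 12.8 ± 3.28 to 6.15 ± 1.0 CPM (log2 -1.06, SE 0.20) and Cblb rose from 16.2 ± 4.66 to 36.7 ± 3.47 CPM (log2 1.18, SE 0.22). With Torin, Cblb stood at 65.5, 75.4 and 89.0 CPM, above all stimulated libraries at 32.1 to 39.6 CPM (log2 1.06, SE 0.23; edgeR adjusted p = 0.0286), a call that was lost without any 1 of the stimulated or Torin libraries. Torin against naive gave 3 of these genes higher and 3 lower, with 5 lower by DESeq2, 2 higher and 4 lower with library totals alone, and 1 lower without Torin 1 or without Torin 3.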
